A study of Mus musculus with 11 samples.

Results

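This account follows 35 genes of G2, mitosis and the spindle through the differentiation of mouse embryonic stem cells. The genes were chosen by symbol for their known roles, with no measured value in the rule, though earlier results of these data were known. All 35 were found among the 38197 genes of the count table. RNA was sequenced from 11 libraries of wild-type E14 cells, an embryonic stem cell line of the 129 strain grown as a monolayer. The unsorted groups were undifferentiated cells at day 0 and cells after 1, 2 and 3 days in differentiation conditions, with 2 libraries at each day. The remaining 3 libraries came from neural progenitors sorted by their surface marker Prominin-1. They carry the name day 3.5 in their titles, while another label of the same libraries gives 3 days. The differentiation was directed to ventral hindbrain neurons with RA (retinoic acid) and SAG, an agonist of the hedgehog pathway, given over days 0 to 3, and all groups share this protocol in the labels. Nothing in the labels says whether libraries of a group came from separate cultures, so the p-values below measure only the spread between these libraries, which may be technical. The sorted libraries also carry codes with another prefix than the unsorted ones, so the sort, the day and whatever the codes stand for cannot be told apart.

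Entry into mitosis is driven by the kinase Cdk1 bound to A-type and B-type cyclins, with Polo-like and Aurora kinases acting beside it. The spindle checkpoint holds the anaphase-promoting complex (APC/C) inactive until every kinetochore is attached to microtubules, after which cyclin B and the separase inhibitor are destroyed, sister chromatids part and the cell is cleaved. Most of these genes are transcribed in G2 and M phase through CHR elements, bound by the MuvB complex with B-Myb and FoxM1, and through CCAAT boxes, bound by NF-Y. Embryonic stem cells are known for a rapid cell cycle with a short G1 phase, neural progenitors for a longer cycle, and neurons for having left the cycle.

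Library totals ran from 13173675 to 30384601 counts, and the 3 sorted libraries were the shallowest. The members were all well covered, with 1066 to 54567 counts for a member in a library, so counting error was small beside the spread between libraries. Together they took 0.6809% to 1.106% of a library's counts. Undifferentiated identity was checked with 9 pluripotent cell markers, whose summed level was 1730 and 2000 CPM (counts scaled to library size after TMM normalization) on day 0, 259 and 293 on day 1, 38.9 and 44.2 on day 2, 32.4 and 23 on day 3 and 6.16, 8.8 and 9 in the sorted libraries. Prom1, which encodes the sorted protein, was at 331, 280 and 283 CPM in the sorted libraries, against 263 and 215 CPM on day 3 and 44.7 and 40 CPM on day 0. The 10 neural progenitor markers summed to 747 and 775 CPM on day 0, 526 and 506 on day 1, 1710 and 1590 on day 2, 2880 and 2460 on day 3 and 3210, 3270 and 3380 in the sorted libraries. In such bulk RNA, fewer cells of a type and less RNA per cell cannot be told apart.

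The 2 day 3 libraries differed, and a pair cannot show which of its libraries is unusual. All 35 members were lower in day 3 replicate 1 than in day 3 replicate 2, by a median of 0.34 on the log2 scale. The median of replicate 2 minus replicate 1 was 0.23 on day 0, -0.27 on day 1 and -0.08 on day 2. On those days replicate 2 was higher for 25, 12 and 5 members. The summed level of 30 DNA replication genes was 4160 CPM in replicate 1 and 5480 CPM in replicate 2. That of 10 extraembryonic endoderm markers was 1920 CPM in replicate 1 and 1190 CPM in replicate 2. The gap in the endoderm sum was mostly Lama1, at 1640 CPM in replicate 1 and 952 CPM in replicate 2. Cubn, another of these markers, was at 96.4 and 98.7 CPM. The main counts of called genes that rest on day 3 are also given without replicate 1. Median log2 fold changes of the members are given without either day 3 library.

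Per length of transcript, the most abundant members were Cdk1, with a median FPKM (the deposited value scaled to transcript length and library size) of 343 over the 11 libraries, and Top2a, the DNA topoisomerase that untangles sister chromatids, with 305. Cdk1 FPKM was 435 and 486 on day 0, 515 and 425 on day 1, 393 and 343 on day 2, 278 and 299 on day 3 and 315, 281 and 295 in the sorted libraries. Top2a FPKM was 368 and 414 on day 0, 364 and 297 on day 1, 305 and 274 on day 2, 238 and 285 on day 3 and 343, 306 and 265 in the sorted libraries. The ranges of these 2 genes overlapped, and both stood above every value of the other 33 members. Cdc20 and Tpx2 followed with equal medians of 154, then Ccna2 with 139, Ube2c with 136 and Prc1 with 134. These neighbours overlapped over the libraries and had no clear order. At the other end were Espl1, which encodes separase, with 17, the kinetochore motor Cenpe with 24.7 and the kinetochore protein Ndc80 with 31.5. Kif20a was listed at an FPKM of 0 in day 1 replicate 1 and in sorted replicate 1, although 11483 and 5023 reads were counted for it there. Those listed zeros were left out of the figure but kept in the medians, the means and the fits on FPKM. In the other 9 libraries its FPKM lay between 51.2 and 106.

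**Figure D1:**
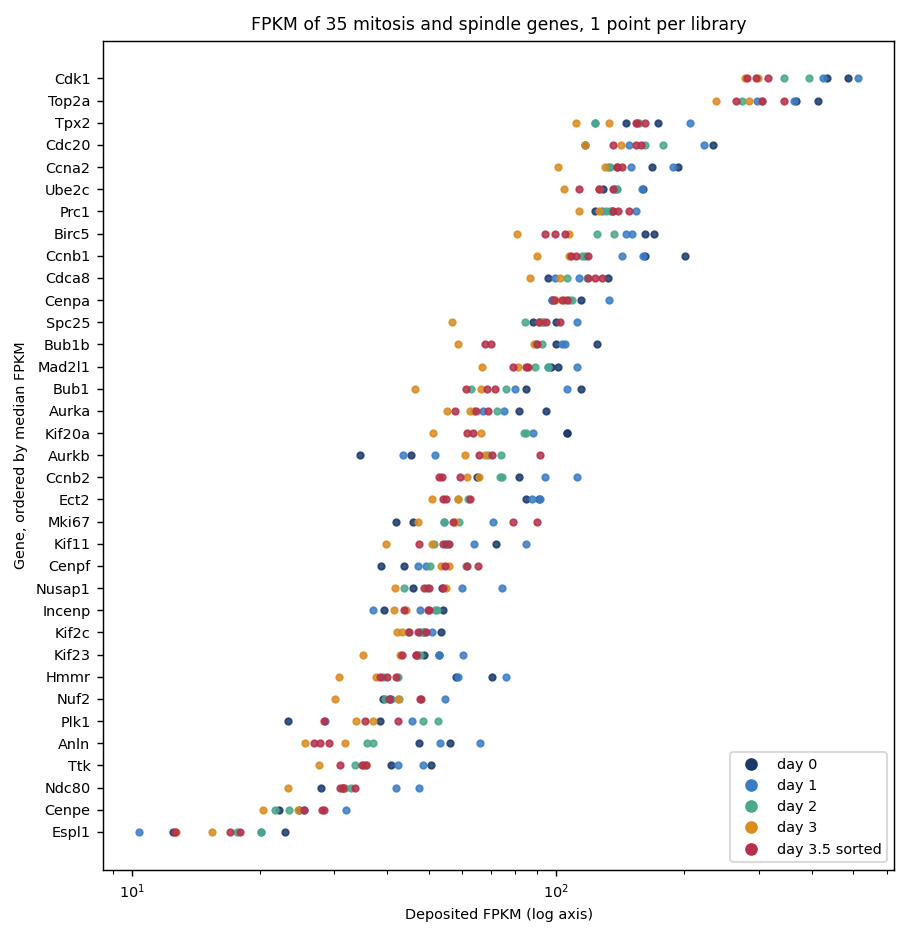
Deposited FPKM (log axis) of each member in each library, 1 point per library, coloured by group and ordered by the median. Cdk1 and Top2a stand above the rest, Espl1 has the lowest median at 17, and the 2 libraries in which Kif20a is listed at 0 have no point.

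The promoters of the members were searched for the elements named above, and 5 windows are printed to show how the elements are arranged. Sequences came from RefSeq on GRCm38.p6, in which 30 of the 35 members had a start, with 32 starts in all. Tpx2, Kif20a, Incenp, Aurkb and Ccna2 had no entry. The 250 bases before each start were searched on both strands for the CHR element, spelled either as TTTGAA or with C in its middle as TTCGAA, and for the box spelled CCAAT. Neither motif contains the other, and a match on the reverse strand appears below as its reverse complement. The printed members are the 4 with the highest mean FPKM among those with a CHR match, and the highest among those without one. Capitals mark the CHR and CCAAT matches, and each sequence ends at the base before the start.
Cdk1: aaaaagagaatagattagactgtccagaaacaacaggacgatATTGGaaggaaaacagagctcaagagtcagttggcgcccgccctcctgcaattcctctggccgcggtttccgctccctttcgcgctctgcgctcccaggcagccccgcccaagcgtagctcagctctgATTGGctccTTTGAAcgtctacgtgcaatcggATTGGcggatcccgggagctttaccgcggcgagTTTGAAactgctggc
Top2a: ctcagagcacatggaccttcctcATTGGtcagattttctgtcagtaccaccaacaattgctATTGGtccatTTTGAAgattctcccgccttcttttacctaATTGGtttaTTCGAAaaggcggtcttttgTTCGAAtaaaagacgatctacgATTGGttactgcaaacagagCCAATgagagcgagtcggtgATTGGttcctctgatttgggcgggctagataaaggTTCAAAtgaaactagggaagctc
Cdc20: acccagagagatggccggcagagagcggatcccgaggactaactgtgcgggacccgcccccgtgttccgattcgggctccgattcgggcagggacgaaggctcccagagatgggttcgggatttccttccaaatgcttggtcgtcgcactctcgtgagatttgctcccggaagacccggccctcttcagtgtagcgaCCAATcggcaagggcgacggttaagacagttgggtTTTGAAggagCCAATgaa
Prc1: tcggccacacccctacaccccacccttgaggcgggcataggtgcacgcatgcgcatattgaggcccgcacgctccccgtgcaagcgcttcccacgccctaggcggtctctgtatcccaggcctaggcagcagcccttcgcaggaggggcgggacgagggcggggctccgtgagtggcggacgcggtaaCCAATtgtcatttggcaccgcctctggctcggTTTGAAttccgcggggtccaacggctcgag
Ccnb1: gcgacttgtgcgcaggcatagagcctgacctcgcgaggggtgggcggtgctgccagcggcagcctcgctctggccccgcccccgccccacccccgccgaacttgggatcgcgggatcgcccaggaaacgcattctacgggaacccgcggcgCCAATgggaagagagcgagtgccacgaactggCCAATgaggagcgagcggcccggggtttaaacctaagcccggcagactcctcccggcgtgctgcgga

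The Cdk1 window is chr10:69352913-69353162 on the minus strand, and it holds CHR matches whose first bases lie 71 and 15 bases before the start. The Top2a window is chr11:99024190-99024439 on the minus strand, with 4 CHR matches and 6 CCAAT matches. The Cdc20 window is chr4:118437344-118437593 on the minus strand, with a CHR match 18 bases before the start. Prc1 had 2 starts, of which only the downstream one, with the window chr7:80294226-80294475 on the plus strand, had a CHR match, 30 bases before it. The Ccnb1 window is chr13:100786487-100786736 on the minus strand, and it holds CCAAT matches 99 and 67 bases before the start but no CHR match. In the GENCODE M21 annotation of the same build the gene begins 9 bases further upstream for Cdc20, 26 for Cdk1 and for Prc1 and 84 for Ccnb1, so the last bases of those windows lie in the first exon there.

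CHR matches were found before 13 of the 32 member starts (40.6%), against 17.1% of all 32851 RefSeq starts and 12.0% of the 14221 starts of genes tested here. CCAAT matches were found before 25 of the 32 (78.1%), against 33.8% of all starts and 35.2% of those of tested genes. At least 2 CCAAT matches stood before 53.1% of member starts, against 10.1% of all starts, and CHR and CCAAT together before 37.5%, against 6.02%. With TTTGAA alone the CHR share was 37.5%, against 16.0% of all starts, and within 100 bases of the start it was 25.0%, against 6.13%. Neighbouring CCAAT matches lay 31 to 34 bases apart in 9 of 33 member pairs (27.3%), against 369 of 4600 pairs (8.02%) before all starts, a range chosen after the positions were seen. Birc5, Mad2l1, Nusap1, Nuf2, Anln and Ndc80 had neither match in their window. Of these, Birc5, Mad2l1 and Anln were called lower in day 3 against day 0, and Nusap1, Nuf2 and Ndc80 were not. The window starts of Cdca8 and Kif2c lie 2394 and 3867 bases from the 5′ end of the gene in the GENCODE annotation, so those windows may not hold the promoter in use.

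From day 0 to day 3 the fold change was negative for 32 of the 35 members, none falling below 0.454 of its day 0 level. Of the 35, 20 were called lower, a count that depended on single libraries, as given below. The members' summed level was 10405 and 12191 CPM on day 0, 11121 and 9303.7 on day 1, 9064.6 and 8429.4 on day 2, 6477.7 and 8231.8 on day 3 and 9599.1, 9009.1 and 8048.9 in the sorted libraries. Day 3 thus lay below day 0 without overlap, while the sorted libraries overlapped with every group but day 0. Among the group means, 21 members were highest on day 0, 8 on day 1, 2 on day 2 and 4 in the sorted libraries, and 30 were lowest on day 3.

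**Figure D2:**
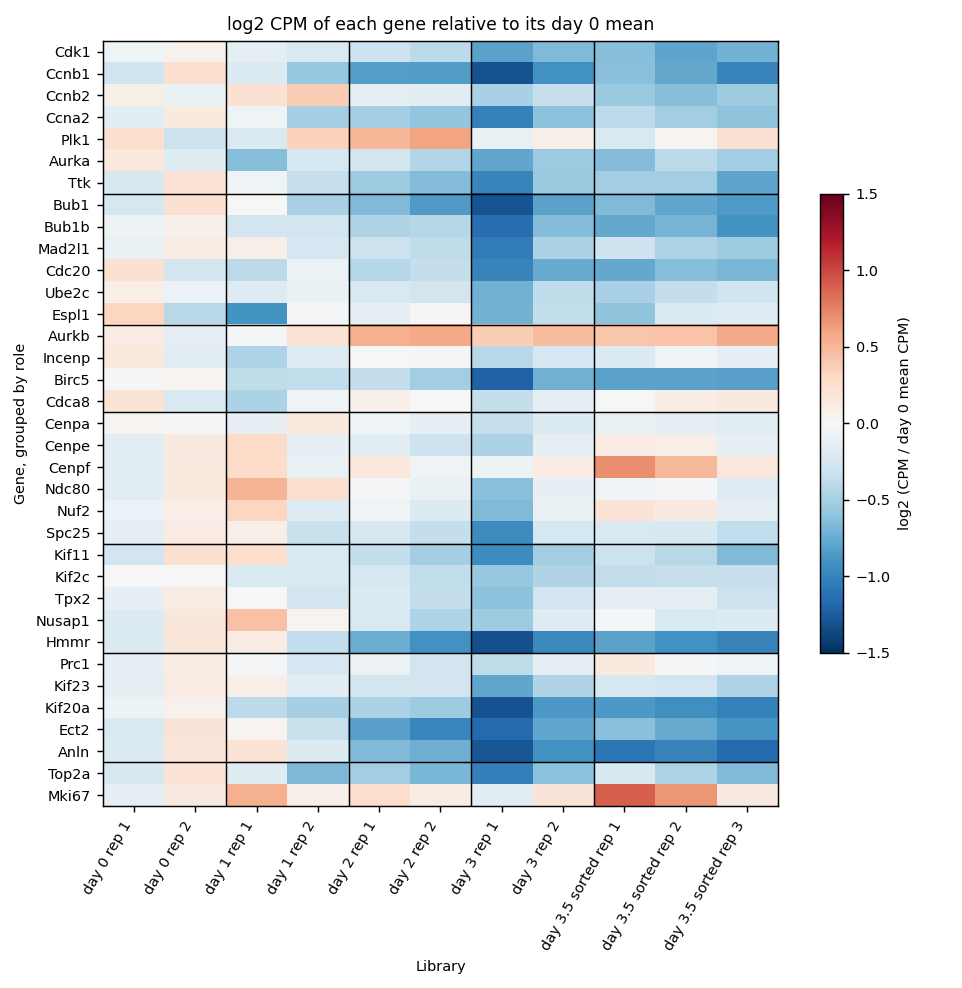
log2 CPM of each of the 35 members relative to its day 0 mean, by library (columns, in order of day) and by role (separated by lines). Blue marks lower and red higher values; day 3 replicate 1 is the darkest blue column, and Aurkb, Mki67 and Cenpf are among the genes with red cells in later libraries.

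In day 3 against day 0, 20 of the 35 members fell and 0 rose in edgeR's quasi-likelihood test (adjusted p under 0.05 over all 16810 genes tested), against 53.9% of all genes (26.3% lower and 27.6% higher). At an unadjusted p under 0.05 there were 22 lower and 1 higher, and DESeq2 called 20 lower and 0 higher. The median log2 fold change of the members was -0.57, against 0.02 over all genes, and 32 were negative. Leaving out day 3 replicate 2 moved the members' median to -0.78. The median absolute log2 fold change of the members was 0.57, against 0.87 over all genes. The genes tested include many with far fewer counts than the members, so these medians were not matched for level. All day 3 libraries lay below all day 0 libraries for 26 members and above them for 1, against 37.6% and 39.8% of all genes. Without day 3 replicate 1 the count was 9, all of them among the 20, namely Cdk1, Ccnb1, Bub1b, Cdc20, Birc5, Hmmr, Kif20a, Ect2 and Anln, and the median log2 fold change was -0.45. In that fit 36.8% of all genes were called in either direction. On the deposited FPKM (log2 of FPKM + 1, limma) 11 members were lower and 2 higher (Aurkb and Cenpf). That fit called 48.7% of all genes in either direction.

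**Figure D3:**
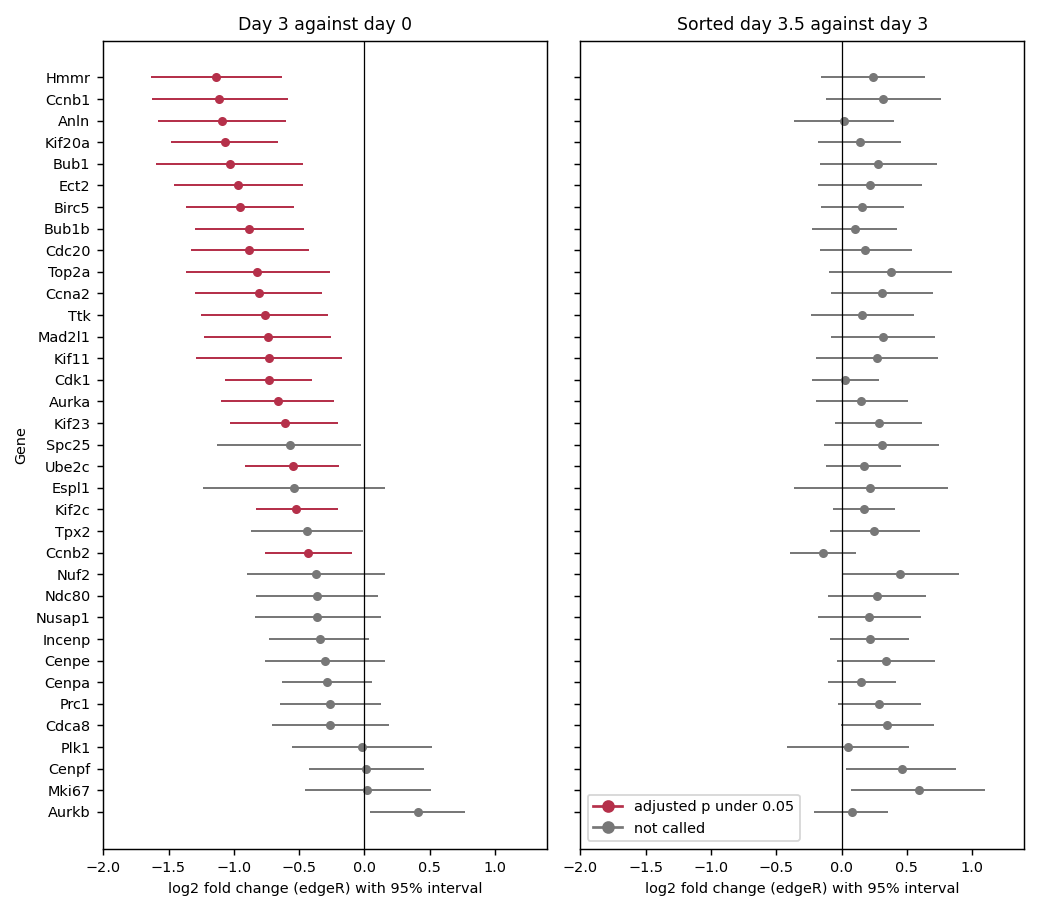
log2 fold changes of the 35 members from edgeR with 95% intervals, for day 3 against day 0 (left) and the sorted day 3.5 libraries against day 3 (right), in the same gene order. In the left panel 20 genes are called (red), from Hmmr at -1.14 to Ccnb2 at -0.43, and in the right panel none is called.

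Among the kinases and cyclins of mitotic entry, 6 of 7 fell by day 3. Cdk1, the engine of mitosis, had 355 and 388 CPM on day 0, 337 and 317 on day 1, 301 and 284 on day 2, 213 and 236 on day 3 and 238, 215 and 228 in the sorted libraries. Every day 3 library was below every day 0 library, and the log2 fold change was -0.73 ± 0.14 (SE; adjusted p = 0.00248). Ccnb1, which encodes cyclin B1, had 155 and 228 CPM on day 0, 166 and 129.0 on day 1, 108 and 107 on day 2, 77 and 102 on day 3 and 124, 112 and 96.2 in the sorted libraries. Its log2 fold change was -1.11 ± 0.23 (SE; adjusted p = 0.00319), and its day 0 libraries differed widely. Ccnb2, encoding cyclin B2, had 158 and 139 CPM on day 0, 174 and 194 on day 1, 135 and 133 on day 2, 106 and 117 on day 3 and 101, 95.9 and 103 in the sorted libraries. It was highest on day 1 and fell by day 3 with -0.43 ± 0.14 (SE; adjusted p = 0.0325), a call held under only 8 of 20 other settings. Ccna2, which encodes cyclin A2, had 482 and 599 CPM on day 0, 516 and 382 on day 1, 378 and 359 on day 2, 267 and 353 on day 3 and 410, 377 and 356 in the sorted libraries. Its fall by day 3 was -0.81 ± 0.21 (SE; adjusted p = 0.0103). Aurka, the Aurora kinase of the spindle poles, and Ttk, the checkpoint kinase Mps1, fell as well, with -0.66 ± 0.19 (SE; adjusted p = 0.0142) and -0.76 ± 0.21 (SE; adjusted p = 0.0132). Plk1, the Polo-like kinase that acts from entry to cytokinesis, had a log2 fold change of -0.02 ± 0.23 (SE), its lowest library at 68 CPM and its highest libraries on day 2. Plk1, with a transcript GC content of 56%, was called lower at day 3 once GC content was offset in the fit. That call held with and without a replicate block. With day 3 replicate 1 left out, 2 of the 7 were called.

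In the group of the spindle checkpoint, APC/C and separase, 5 of 6 fell. Bub1b, which encodes the checkpoint protein BubR1, had 430 and 479 CPM on day 0, 373 and 375 on day 1, 331 and 337 on day 2, 206 and 290 on day 3 and 266, 280 and 244 in the sorted libraries. Its day 3 libraries lay below all libraries of days 0 to 2, and the log2 fold change against day 0 was -0.88 ± 0.18 (SE; adjusted p = 0.00314). Bub1, a checkpoint kinase of the kinetochore, had 322 and 452 CPM on day 0, 385 and 276 on day 1, 245 and 214 on day 2, 158 and 222 on day 3 and 245, 226 and 215 in the sorted libraries. It fell by 1.03 ± 0.25 on the log2 scale (SE; adjusted p = 0.00647). Mad2l1, which encodes the inhibitor Mad2, had 169 and 196 CPM on day 0, 193 and 152 on day 1, 146 and 140 on day 2, 87.7 and 131.1 on day 3 and 147, 131.9 and 126.2 in the sorted libraries. It fell by 0.74 ± 0.21 on the log2 scale (SE; adjusted p = 0.0157), and replicate 1 of day 3 was far below replicate 2. Cdc20, the APC/C activator that the checkpoint holds back, had 322 and 228 CPM on day 0, 210 and 259 on day 1, 204 and 214 on day 2, 137 and 163 on day 3 and 162, 176 and 171 in the sorted libraries. It fell by 0.88 ± 0.20 on the log2 scale (SE; adjusted p = 0.00483). Ube2c, the ubiquitin-conjugating enzyme of the APC/C, fell by 0.55 ± 0.16 on the log2 scale (SE; adjusted p = 0.0152). Espl1 ran from 91.9 to 214 CPM, with the widest spread between replicates of days 0 and 1, and its log2 fold change of -0.54 ± 0.31 (SE) was not called (adjusted p = 0.161). Only 2 of the 6 were called when day 3 replicate 1 was left out.

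The chromosomal passenger complex, which corrects wrong attachments and then directs cytokinesis, had 1 of 4 subunits called. Its survivin subunit Birc5 had 175 and 183 CPM on day 0, 138 and 139 on day 1, 140 and 124.5 on day 2, 77.1 and 109 on day 3 and 103, 103 and 102 in the sorted libraries. Day 3 lay below every earlier library, with -0.95 ± 0.18 (SE; adjusted p = 0.00198). Its kinase Aurkb had 88.2 and 73.5 CPM on day 0, 79.6 and 93.3 on day 1, 117 and 120 on day 2, 104 and 111 on day 3 and 108, 109 and 120 in the sorted libraries. Aurkb was the only member with all day 3 libraries above all day 0 libraries, and its log2 fold change of 0.41 ± 0.16 (SE) just missed the threshold (adjusted p = 0.052). It was called higher under 6 other settings of the processing and under 3 that left out a library of day 0 or day 1. The scaffold Incenp had 237 and 190 CPM on day 0, 154 and 187 on day 1, 214 and 211 on day 2, 160 and 178 on day 3 and 185, 203 and 196 in the sorted libraries, and its log2 fold change of -0.34 ± 0.17 (SE) was not called. Cdca8, which encodes borealin, had 164 and 121 CPM on day 0, 102 and 136 on day 1, 150 and 143 on day 2, 111 and 128.3 on day 3 and 143, 154 and 157 in the sorted libraries. Its day 3 libraries overlapped with day 0, and its log2 fold change was -0.26 ± 0.20 (SE; not called). Also without day 3 replicate 1, 1 of the 4 was called.

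The ratio of Aurkb to Aurka FPKM was 0.479 and 0.421 on day 0, 0.647 and 0.689 on day 1, 0.951 and 1.16 on day 2, 1.1 and 1.08 on day 3 and 1.22, 0.955 and 1.42 in the sorted libraries. All 9 later libraries lay above both day 0 libraries. The GC contents of the transcripts were 52.5% for Aurkb and 51.4% for Aurka. This ratio was chosen after the values were seen and is given without a test.

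None of the 6 centromere and kinetochore members was called at day 3. Ndc80, the microtubule-binding subunit that names the Ndc80 complex, had 79.9 and 98.9 CPM on day 0, 126.8 and 106 on day 1, 87.9 and 83.5 on day 2, 57.9 and 82.4 on day 3 and 85.5, 88.4 and 78 in the sorted libraries. It was highest on day 1, and its day 3 libraries overlapped with day 0. Spc25, another subunit of the complex, had 127.6 and 155 CPM on day 0, 151 and 113 on day 1, 120 and 111 on day 2, 73.3 and 118 on day 3 and 121, 120 and 110 in the sorted libraries. Its log2 fold change of -0.57 ± 0.24 (SE) came closest to a call (adjusted p = 0.0704), with both day 3 libraries below day 0. Nuf2, the partner of Ndc80, had 95.9 and 109 CPM on day 0, 127.7 and 89 on day 1, 98.3 and 88.2 on day 2, 64.3 and 94.5 on day 3 and 118, 112 and 92.6 in the sorted libraries, with a log2 fold change of -0.37 ± 0.23 (SE). Cenpf, a large protein of the outer kinetochore, had 312 and 391 CPM on day 0, 427 and 326 on day 1, 394 and 338 on day 2, 335 and 380 on day 3 and 572, 495 and 392 in the sorted libraries. Its level on day 3 overlapped with day 0, the log2 fold change being 0.01 with a 95% interval from -0.42 to 0.45. Cenpa, the histone H3 variant of centromeres, stayed between 109 and 154 CPM in all libraries and had a log2 fold change of -0.29 ± 0.15 (SE). Cenpe ran from 192 to 325 CPM. Leaving out day 1 replicate 2 or day 3 replicate 2 brought 1 call in this group, and no other omission brought any.

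Spindle motors and microtubule proteins fell in 3 of 5 cases. Hmmr, a microtubule-binding protein of the spindle poles, had 287 and 375 CPM on day 0, 358 and 257 on day 1, 197 and 176 on day 2, 133 and 169 on day 3 and 189, 177 and 165 in the sorted libraries. It changed most of all members, falling by 1.14 ± 0.22 on the log2 scale (SE; adjusted p = 0.0022) at day 3, and it had already fallen at day 2. Kif11, the kinesin that pushes the poles apart, had 366 and 528 CPM on day 0, 538 and 381 on day 1, 348 and 315 on day 2, 232 and 311 on day 3 and 357, 335 and 282 in the sorted libraries. It fell by 0.73 ± 0.24 on the log2 scale (SE; adjusted p = 0.0308). Kif2c, a kinesin that depolymerizes microtubules at centromeres, had 186 and 188 CPM on day 0, 160 and 159 on day 1, 156 and 145 on day 2, 125.6 and 137 on day 3 and 145, 147 and 147 in the sorted libraries. It fell by 0.52 ± 0.14 on the log2 scale (SE; adjusted p = 0.0106), with little spread between replicates. Tpx2, which activates Aurka and nucleates microtubules around chromosomes, had 461 and 545 CPM on day 0, 500 and 412 on day 1, 436 and 392 on day 2, 328 and 416 on day 3 and 458, 458 and 404 in the sorted libraries, and its log2 fold change of -0.44 ± 0.19 (SE) was not called (adjusted p = 0.0701). Nusap1, a protein that bundles microtubules near chromosomes, ran from 142 to 278 CPM and was not called. Hmmr alone was called in this group without day 3 replicate 1.

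Midzone and cytokinesis genes fell in 4 of 5 cases. Anln, which encodes the contractile ring scaffold anillin, had 360 and 474 CPM on day 0, 482 and 363 on day 1, 264 and 250 on day 2, 172 and 223 on day 3 and 197, 208 and 188 in the sorted libraries. The libraries of day 1 overlapped with those of day 0, those of later groups were all lower, and the fall at day 3 was 1.09 ± 0.21 on the log2 scale (SE; adjusted p = 0.00239). Kif20a, a kinesin of the midzone, had 517 and 568 CPM on day 0, 413 and 385 on day 1, 391 and 375 on day 2, 220 and 300 on day 3 and 298, 287 and 268 in the sorted libraries. It had the smallest adjusted p of the members in day 3 against day 0, with -1.07 ± 0.18 (SE; adjusted p = 0.000979), although on FPKM, with its listed zeros, it was not called. Kif23, a kinesin of the centralspindlin complex, had 234 and 278 CPM on day 0, 274 and 227 on day 1, 212 and 210 on day 2, 149 and 188 on day 3 and 216, 209 and 186 in the sorted libraries, and it fell by 0.61 ± 0.18 on the log2 scale (SE; adjusted p = 0.0167). Ect2, the exchange factor that activates RhoA at the cleavage site, fell by 0.97 ± 0.22 on the log2 scale (SE; adjusted p = 0.00465). Prc1, which bundles the antiparallel microtubules of the midzone, had 248 and 290 CPM on day 0, 264 and 226 on day 1, 253 and 223 on day 2, 206 and 245 on day 3 and 298, 265 and 258 in the sorted libraries. It was not called, with -0.26 ± 0.17 (SE). In the fit lacking day 3 replicate 1, 3 of the 5 were called.

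Of the 2 genes of the mitotic chromosomes, Top2a was called at day 3 and Mki67 was not. Top2a had 1700 and 2320 CPM on day 0, 1770 and 1260 on day 1, 1400 and 1250 on day 2, 990 and 1310 on day 3 and 1700, 1460 and 1270 in the sorted libraries, and its fall at day 3 was 0.82 ± 0.24 on the log2 scale (SE; adjusted p = 0.0185). It was not called when day 3 replicate 1 or day 0 replicate 2 was left out. Mki67, the proliferation marker that coats mitotic chromosomes, had 553 and 669 CPM on day 0, 887 and 645 on day 1, 734 and 662 on day 2, 548 and 700 on day 3 and 1140, 970 and 670 in the sorted libraries. Its day 3 libraries overlapped with day 0, with a log2 fold change of 0.02 and a 95% interval from -0.45 to 0.50. The ratio of Mki67 to Top2a FPKM was 0.114 and 0.111 on day 0, 0.195 and 0.183 on day 1, 0.194 and 0.199 on day 2, 0.198 and 0.203 on day 3 and 0.263, 0.258 and 0.215 in the sorted libraries. All later libraries were above day 0, a description chosen after the values were seen.

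Single days showed fewer calls than the whole course. In day 1 against day 0, edgeR called 0 of the 35 members, against 20.9% of all genes (12% higher and 8.91% lower), and DESeq2 called 0. The libraries of day 1 lay above those of day 0 for 2 members and below them for 8, against 29.1% and 26.5% of all genes. At an unadjusted p under 0.05 there were 2 lower members, Aurka and Kif20a, and 0 higher. The median log2 fold change was -0.14, against 0.01 over all genes, but its sign depended on the scaling, being 0.06 on log2(FPKM + 1), where the median of all genes was 0.09, and 0 on the deposited log2 values, where it was 0.15. In day 2 against day 1, 3 members fell and 0 rose, against 19.6% of all genes (9.99% lower and 9.65% higher). These were Ect2 with -0.76 ± 0.21 (SE; adjusted p = 0.0362), Anln with -0.72 ± 0.21 (SE; adjusted p = 0.0421) and Hmmr with -0.73 ± 0.22 (SE; adjusted p = 0.0455). Day 2 lay below day 1 without overlap for 18 members and above it for 4, against 33.6% and 34.8% of all genes. At an unadjusted p under 0.05 there were 5 lower members and 1 higher, Aurkb, and DESeq2 called 3 lower and 0 higher. All 3 calls were lost on omission of day 1 replicate 1 or of either day 2 library, and only that of Ect2 held without either day 3 library. In day 3 against day 2, edgeR called 0 members, against 4.07% of all genes (2.81% higher and 1.26% lower), with 6 lower at an unadjusted p under 0.05, and DESeq2 called 0. Day 3 lay below day 2 without overlap for 23 members and above it for 0, against 31.4% and 30.6% of all genes. All 35 log2 fold changes were negative, with a median of -0.26, against -0.01 over all genes. Without day 3 replicate 1 the median was -0.10 and 10 were positive. Without day 3 replicate 2 the median was -0.46 and all 35 were negative. Over the 4 unsorted days, 16 of 35 members changed in an F test of any difference, against 53.7% of all genes. For this F test the share of all genes was computed in the main fit only. Omitting day 3 replicate 1 gave 7 calls, and omitting either day 2 library gave 10.

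The replicates of a day differed along the GC content of the transcripts. Across the 35 members, the log2 difference of replicate 2 minus replicate 1 correlated with GC content at r = -0.86 for day 0, 0.86 for day 1, 0.72 for day 2 and -0.55 for day 3, genes of 1 pair of libraries being no independent points. Over all genes tested the values were -0.51, 0.6, 0.22 and -0.26. The 20 members that fell by day 3 had a median GC content of 46.2%, and the 15 others had 46.6%. With an offset for GC content in the fit, 24 members were lower and 1 was higher in day 3 against day 0. In that fit 62.3% of all genes were called in either direction, against 53.9% in the main fit. The added lower members were Plk1, Espl1, Incenp and Tpx2, and the higher one was Aurkb.

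**Figure D4:**
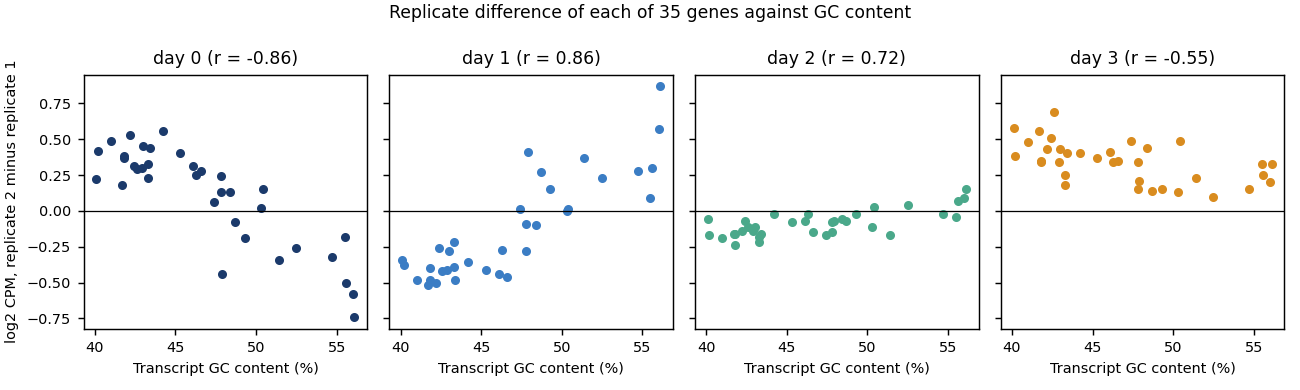
Difference in log2 CPM between replicate 2 and replicate 1 for each of 35 members (points) against the GC content of its longest transcript, for each unsorted day. The trend falls on day 0 (r = -0.86), rises on day 1 (r = 0.86), and on day 3 all 35 points are above 0.

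In the sorted day 3.5 libraries against day 3, edgeR called 0 of 35 members, against 3.37% of all 17006 genes tested, 0.435% higher and 2.93% lower. DESeq2 called 0 as well, and at an unadjusted p under 0.05 there were 3 higher members, Mki67, Cenpf and Nuf2, and 0 lower. The fold changes were positive for 34 members, with a median log2 fold change of 0.22, against -0.01 over all genes. The size of this difference depended on the day 3 library used. Without day 3 replicate 1, 26 were positive and the median was 0.06. Without day 3 replicate 2, 34 were positive and the median was 0.42. The difference was 0.59 ± 0.23 (SE; adjusted p = 0.237) for Mki67, 0.46 ± 0.19 (SE; adjusted p = 0.264) for Cenpf and 0.45 ± 0.20 (SE; adjusted p = 0.312) for Nuf2. For Mki67 the sorted libraries at 1140, 970 and 670 CPM overlapped with day 3 at 548 and 700 CPM, and for Cenpf at 572, 495 and 392 CPM they lay above day 3 at 335 and 380 CPM. Sorted and day 3 libraries did not overlap for 9 members, 8 of them higher in the sorted libraries and 1 lower (Ccnb2), against 13.2% and 19.9% of all genes. For Cdk1 the difference was 0.03 ± 0.11 (SE; adjusted p = 0.953), with a 95% interval from -0.22 to 0.28. Beside these values, the summed level of the 10 extraembryonic endoderm markers was 245, 283 and 226 CPM in the sorted libraries, against 1920 and 1190 CPM on day 3, and 8 of the 10 fell, or 7 without day 3 replicate 1. The 12 postmitotic neuron markers summed to 1720, 1250 and 1070 CPM in the sorted libraries, against 1350 and 1170 CPM on day 3, and 0 of the 12 were called. The part of these cells in the mitotic values was not tested.

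**Figure D5:**
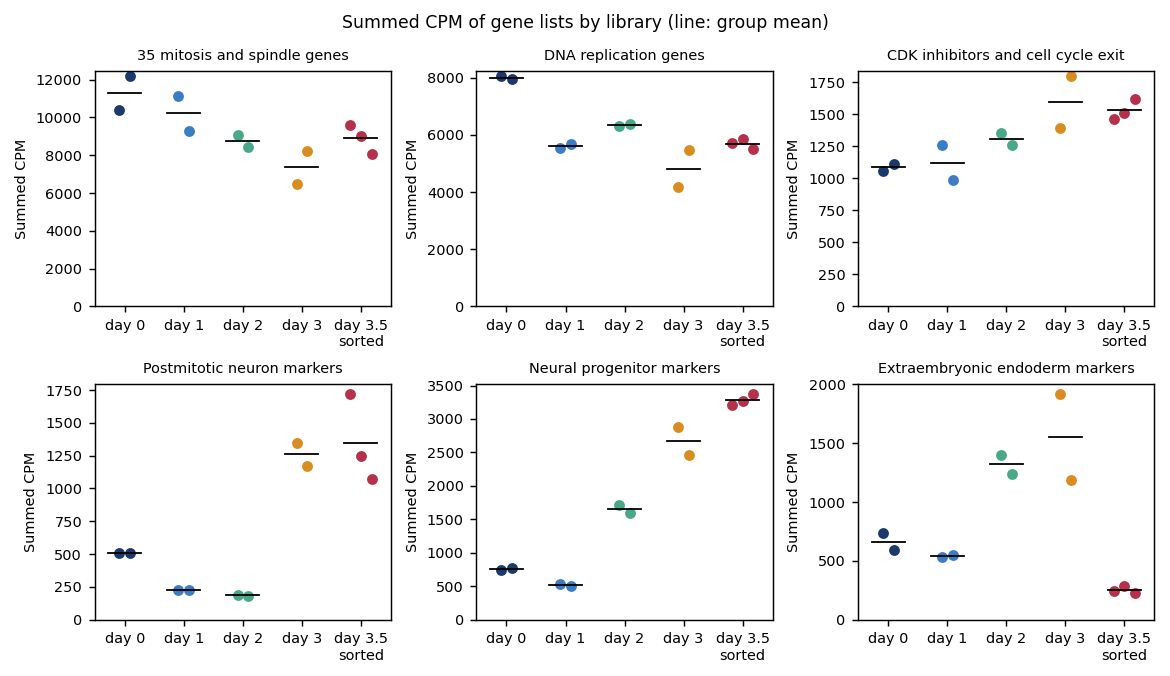
Summed CPM of the 35 members and of 5 other gene lists, by library (points) and group, with lines at group means. The means of the members and of the DNA replication genes are highest on day 0, neuron markers are higher from day 3, and extraembryonic endoderm markers are low in the sorted libraries.

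Members resembled each other to different degrees over the 11 libraries. The correlation of a member's log2 CPM with the mean of the other 34 was highest for Mad2l1 (0.98) and Kif23 (0.97), and lay at 0.95 for Ccna2 and Bub1. The least alike were Aurkb (-0.71), Plk1 (-0.14), Cenpf (0), Cdca8 (0), Mki67 (0.11) and Espl1 (0.17). Libraries of 1 group and the GC trend are shared by all members, so these values are a description.

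Other genes of the same processes were taken from lists that hold no member, and their counts in day 3 against day 0 stand against 26.3% of all genes lower and 27.6% higher. Among genes for condensin and the protection of cohesin, 5 of 11 fell and 0 rose. The cohesin stabilizer Cdca5, or sororin, was at 63 ± 6 CPM on day 3 and 188 ± 20 CPM on day 0 (SD, n = 2 each; log2 fold change -1.58, adjusted p = 4.94e-05), and securin, Pttg1, was at 59.5 ± 5.54 CPM on day 3 and 109 ± 2.5 CPM on day 0 (-0.88, adjusted p = 0.0014). Among other kinetochore and centromere genes, 11 of 30 fell, including Cenpo (-1.21 ± 0.19), and 2 rose, Zwint (0.45 ± 0.14) and Ska2 (0.59 ± 0.20). Other kinesins, spindle and cytokinesis genes fell in 9 of 36 cases. Trip13, the ATPase that recycles Mad2, fell by 1.5 ± 0.19 on the log2 scale, and the only one that rose was Cdc25b, a phosphatase that activates Cdk1 (1.60 ± 0.21). Cdc25b was already higher on day 1, at 64.8 ± 12.8 CPM against 21.3 ± 4.23 CPM on day 0. Of the subunits and regulators of the APC/C, 5 of 17 fell and 1 rose. The APC/C inhibitor Fbxo5, or Emi1, fell by 1.11 ± 0.19, and the chain-extending enzyme Ube2s fell by 1.28 ± 0.23. The lower shares of the kinesin and APC/C lists were near that of all genes. Leaving out day 3 replicate 1 changed the lower counts of these 4 lists to 3, 5, 5 and 2 and their higher counts to 0, 1, 1 and 0, and omission of day 0 replicate 2 changed the lower counts to 3, 5, 7 and 3.

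The list of MuvB, B-Myb, FoxM1, NF-Y, E2F and retinoblastoma family genes had 7 of 23 genes lower and 6 higher on day 3 than on day 0, shares near those of all genes (26.3% lower and 27.6% higher). The 6 higher genes were Rb1, Rbl1, Rbl2, E2f5, E2f6 and Tfdp2, of the retinoblastoma and E2F families. Mybl2, which encodes B-Myb, was at 36.8 ± 1.6 CPM on day 3 and 137 ± 12.7 CPM on day 0 (-1.91 ± 0.23, adjusted p = 0.000172). The NF-Y subunit Nfyb was at 72 ± 17.5 CPM on day 3 and 203 ± 36.5 CPM on day 0 (-1.5 ± 0.21, adjusted p = 0.000432), and E2f8, a repressor of the E2F family, was at 45 ± 5.18 CPM on day 3 and 101 ± 1.82 CPM on day 0 (-1.17 ± 0.15, adjusted p = 0.000266). Leaving out day 3 replicate 1 gave 3 lower and 3 higher calls, and leaving out day 0 replicate 1 gave 5 lower and 3 higher.

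Among DNA replication genes, 8 of 30 were lower in day 1 against day 0 and 0 were higher, against 8.91% and 12% of all genes, led by Chaf1b (-1.13 ± 0.17), a subunit of the chromatin assembly factor, and Mcm10 (-1.12 ± 0.17), a replication initiation factor, while 0 of the 35 members were called, the difference between the lists being untested. On log2(FPKM + 1) that count was 2, with 14.4% of all genes called in either direction. At day 3, 23 of 30 were lower than on day 0, against 26.3% of all genes, or 11 without day 3 replicate 1. Orc1, a subunit of the origin recognition complex, was at 36.2 ± 10.1 CPM on day 3 and 152 ± 32.5 CPM on day 0. The list of CDK inhibitors and genes of cell cycle exit went the other way, with 11 of 14 higher on day 3 than on day 0 and 1 lower, against 27.6% and 26.3% of all genes. Without day 3 replicate 1 there were 8 higher and 2 lower. Cdkn1b, which encodes the inhibitor p27, was at 124 ± 5.91 CPM on day 3 and 41.4 ± 4.04 CPM on day 0 (1.57 ± 0.16, adjusted p = 6.56e-05). The atypical cyclin Ccng2 was at 66.6 ± 3.48 CPM on day 3 and 15.8 ± 3.4 CPM on day 0 (2.07 ± 0.21), and the antiproliferative gene Btg1 at 63 ± 4.51 CPM on day 3 and 16.2 ± 2.56 CPM on day 0 (1.95 ± 0.20). In the sorted libraries against day 3, the only called gene of these 2 lists was Gadd45b, a stress-induced gene at 1.15 ± 0.136 CPM in the sorted libraries (SD, n = 3) and 4.21 ± 2.63 CPM on day 3 (SD, n = 2). That call was lost under 10 of 22 other settings, among them the omission of day 3 replicate 1 or of any sorted library. Beside the falls at day 3, the 12 postmitotic neuron markers summed to 1350 and 1170 CPM on day 3. Their sums were 509 and 511 CPM on day 0 and 190 and 181 CPM on day 2. Of the 12, 10 were higher on day 3 than on day 0 and 1, Stmn2, was lower. Stmn2 made up most of the day 0 sum, with 293 and 325 CPM, and was at 109 and 105 CPM on day 3. The 10 extraembryonic endoderm markers summed to 1920 and 1190 CPM on day 3, against 734 and 593 CPM on day 0. The rise of that sum was Lama1, at 1640 and 952 CPM on day 3 and 440 and 296 CPM on day 0. Of the 10 markers, 3 were higher and 2 lower on day 3 than on day 0. Cubn went from 167 and 180 CPM on day 0 to 96.4 and 98.7 CPM on day 3. The part of neurons, endoderm cells and neural progenitors in the members' levels was not tested.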

How the data were processed

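Poly(A)-selected RNA was prepared with a ZymoPure kit and an Illumina TruSeq kit, per the labels' protocols. The submitters' processing notes list the tools TopHat2 2.0.4, Cufflinks 2.1.1, HTSeq 0.6.1, bcl2fastq 1.8.3, CASAVA and limma and the mouse builds GRCm38 and mm10, with no roles given. No source used here gives the annotation or the strand setting of the counting, so reads of a gene and an antisense partner may be joined. The deposited count table holds expected counts (estimated counts), of which 38093 genes have whole numbers and 104 genes, none of them a member, have fractions, and these were rounded. The deposited log2 values equal log2 counts scaled to library totals of the same table with an offset of 0.5 counts, to within 4.97e-14. The deposited FPKM values were used for levels between genes and as an alternative.

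Counts were scaled with TMM and tested with edgeR 4.0.16 in R 4.3.3 (quasi-likelihood F test, filterByExpr with a minimum count of 10, Benjamini-Hochberg adjustment over all genes tested, threshold 0.05). Days 0 to 3 were fitted on 8 libraries and the sorted libraries against day 3 on all 11. The SE of a log2 fold change is its size divided by the square root of F. Alternatives used DESeq2 1.42.0, limma 3.58.1 on FPKM (pseudocount 1 or 0.1, FPKM of at least 1 in 2 libraries) or on the deposited log2 values, and a GC offset from GENCODE M21 transcripts, which 92.8% of the genes tested had. The statistics were also run on simulated counts without a GC trend, which cannot show how they behave under the GC trend seen here. Other tools were SciPy 1.17.1, pandas 2.3.3 and matplotlib 3.10.9. Library totals limit counting precision only.

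The members and the other lists were chosen with earlier results of these data known. Per role, values in every library are given for at most 4 members, those with the smallest p in the test of any change over days and in the sorted libraries against day 3. Ect2, Plk1 and other members given outside this rule were named to account for the whole set. From each other list at most 3 called genes with the smallest adjusted p per comparison are named, while Zwint, Ska2 and the 6 regulators that rose were named after their values were seen, as all the genes of their lists that rose.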

Additional observations from a re-analysis of the deposited data

How the results depend on the processing

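No member reversed its direction among the called results under any setting tried. For day 3 against day 0, the 20 lower calls ran from 9 to 21 and the higher calls from 0 to 1 when a library was left out. They were 11 lower and 2 higher on log2(FPKM + 1), 11 and 1 on log2(FPKM + 0.1), and 9 and 1 on FPKM without a filter. Of all genes, these fits called 48.7%, 48.5% and 32.4% in either direction. Also, 1 higher member was called with a GC offset, with all 11 libraries in the fit and on the deposited log2 values, where 17 were lower. Of all genes, these fits called 62.3%, 57.7% and 54.3% in either direction. Cdk1, Ccnb1, Birc5, Hmmr, Ect2 and Anln were called lower under all 20 other settings. For day 2 against day 1, lower calls ran from 0 to 4 with a library left out. They were 6 with the GC offset, 5 with all 11 libraries, 5 on the deposited log2 values and 1 on FPKM without a filter. Of all genes, these fits called 29.3%, 25%, 19.9% and 8.07% in either direction. Here 1 member was higher with the GC offset or all 11 libraries. For day 1 against day 0 the GC offset gave 2 higher and 5 lower members, against 35.7% of all genes in either direction. For day 3 against day 2 lower calls were 4 with the GC offset, 2 with only the 2 groups compared and 1 with all 11 libraries. Of all genes, these fits called 14.4%, 14.1% and 8.41% in either direction. For the sorted libraries against day 3 the GC offset gave 1 higher member, Cenpf, against 6.99% of all genes in either direction. Any change over days 0 to 3 ran from 7 to 21 with a library left out, and was 26 with the GC offset, 8 with either FPKM pseudocount and 7 on FPKM without a filter. For any change, the share of all genes was not computed under these settings or the replicate blocks below. Those any-change counts therefore cannot be set against all genes. The causes were not tested. Deviations of same-numbered libraries of different days correlated at -0.46, -0.12, 0.19, 0.18, -0.23 and 0.08, which shows no common pairing. These values cannot exclude a pairing, since the replicate differences also followed GC content. With a replicate block, lower calls were 18 for day 3 against day 0 and 0 for day 2 against day 1, and any change was 10. Of all genes, 49.4% were called in day 3 against day 0 and 14.4% in day 2 against day 1. With the replicate block and the GC offset together, lower calls were 4 for day 1 against day 0, 5 for day 2 against day 1 and 2 for day 3 against day 2, higher calls were 2 (Cenpf and Mki67) for the sorted libraries against day 3, and any change was 25. In the same order of comparisons, 32.4%, 26%, 11.7% and 5.18% of all genes were called in either direction. Over all genes, the median in day 3 against day 0 (log2) was 0.02 in edgeR, 0.18 on the deposited log2 values and 0.11 on log2(FPKM + 1), and the members lay -0.59, -0.63 and -0.48 from it. With 2 libraries a day, 1 library decides many calls.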
